A study of Homo sapiens with 6 samples.

Results

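The genes described here are those whose symbol is ZNF followed by a number and which were expressed in control A375 cells, a human melanoma line with mutant BRAF. Members were chosen by their control estimate: a row of the deposited gene table entered if its symbol has this form and its control value was at least 3 FPKM. FPKM counts the fragments of a gene relative to its length and to the size of the sequenced library. This gave 269 members of 535 ZNF-named rows and of 25548 rows in all. The labels give 3 samples of A375 cells exposed to BMH-21 at 1 µM for 6 h, and 3 control samples of that line that received DMSO and are titled 0 h. All were grown in DMEM with serum. BMH-21 blocks RNA polymerase I, which makes ribosomal RNA. Because the control is titled 0 h, the compound and 6 h of further culture cannot be told apart, and "with BMH-21" covers both.

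The table titles 3 values per group as replicates, but for all 269 members, in both groups, the first value was the midpoint of the other 2. They were read as a group estimate between 2 bounds. Single-library values are thus not analysed here, no test between replicates was possible, and no p-value is given. Intervals are called separate where they share no value, as a description of the table. No source used here gives the confidence level of the bounds, and the sequencing depth is unknown. Since FPKM is a relative scale, fewer cells and less RNA per cell cannot be told apart. All 4 melanocyte lineage markers were present, and 2 of them were lower with separate intervals. MITF, the master factor of melanocytes, was at 5.31 FPKM (bounds 4.203 to 6.42) with BMH-21 and 8.06 FPKM (bounds 6.45 to 9.68) in control, and S100B was at 17.8 FPKM (bounds 14.2 to 21.5) with BMH-21 and 28.7 FPKM (bounds 23.1 to 34.3) in control. SOX10, at 90.0 FPKM with BMH-21 and 97.0 FPKM in control, and PAX3, at 8.19 FPKM with BMH-21 and 7.02 FPKM in control, overlapped. The 5 markers of other cell types summed to 2.74 FPKM with BMH-21 and 2.38 FPKM in control, with overlapping intervals. Most of that was the keratin gene KRT14, at 2.16 FPKM with BMH-21 and 1.64 FPKM in control, and the fibroblast gene COL1A1, at 0.459 FPKM with BMH-21 and 0.598 FPKM in control. The leukocyte gene PTPRC, the endothelial gene PECAM1 and the keratin gene KRT5 were below 0.1 FPKM in both groups. The part of these differences in the results on ZNF-named genes was not tested.

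Most ZNF-named genes encode C2H2 zinc finger proteins, in which a pair of cysteines and a pair of histidines hold a zinc ion and each finger reads a few bases of DNA. Many carry a KRAB domain at the N-terminus, which binds the corepressor TRIM28 and through it the histone methyltransferase SETDB1, and these proteins silence retroelements and other loci. They form the largest family of human transcription factors, many of them in gene clusters on chromosome 19, and their messenger RNAs are known as low in abundance. The name is given for the finger and not for the function, so it also covers proteins of the ribosome, the spindle and RNA processing.

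The promoters of 3 members are shown first, because these members stand at either end of the comparison and because their letters illustrate motifs that are counted below. Each runs 5′ to 3′ on the strand of the gene, from 250 bases before to 50 bases after the start, as RefSeq gives it on GRCh38.p14. ZNF367 (chr9:96418321-96418620, minus strand) was the member furthest below control, and capitals mark the E2F-type letters TTTCCCGC and TTTCGCGC, both on the opposite strand. ZNF337 (chr20:25696804-25697103, minus strand) had the highest estimate relative to control among members with separate intervals, and capitals mark 3 copies of GTAGTCC. ZNF787 (chr19:56121246-56121545, minus strand) was also higher, and capitals mark 3 copies of the ETS-type motif CCGGAAG on either strand, a pair of which overlap.
ZNF367: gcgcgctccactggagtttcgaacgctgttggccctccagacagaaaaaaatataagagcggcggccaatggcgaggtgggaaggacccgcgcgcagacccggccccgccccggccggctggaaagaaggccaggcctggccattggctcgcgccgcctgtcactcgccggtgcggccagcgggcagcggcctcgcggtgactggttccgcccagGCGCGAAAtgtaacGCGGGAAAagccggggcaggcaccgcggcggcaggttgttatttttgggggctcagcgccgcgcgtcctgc
ZNF337: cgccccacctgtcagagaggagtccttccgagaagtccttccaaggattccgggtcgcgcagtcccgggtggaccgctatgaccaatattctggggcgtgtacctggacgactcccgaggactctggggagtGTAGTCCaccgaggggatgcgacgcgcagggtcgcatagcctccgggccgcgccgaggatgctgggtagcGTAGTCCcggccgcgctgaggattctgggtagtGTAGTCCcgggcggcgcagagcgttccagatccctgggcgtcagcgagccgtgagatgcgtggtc
ZNF787: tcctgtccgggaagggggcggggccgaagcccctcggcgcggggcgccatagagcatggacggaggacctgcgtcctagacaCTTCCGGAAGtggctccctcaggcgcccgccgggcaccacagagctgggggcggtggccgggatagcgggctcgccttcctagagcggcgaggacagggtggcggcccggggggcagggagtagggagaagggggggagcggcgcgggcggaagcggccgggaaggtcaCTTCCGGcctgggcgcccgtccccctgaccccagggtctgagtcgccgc

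ZNF-named genes as a whole lay slightly above control with BMH-21. The median log2 difference was 0.10 over the 269 members. A difference here is that of log2(FPKM + 1) values, control subtracted from BMH-21. Over all 10548 rows with a control estimate of at least 3 FPKM it was 0.04, and it was also 0.04 over the 8752 protein-coding rows among them. The estimate was above control for 177 members, or 65.8%, and below it for 92, whereas 56.0% of all rows and 56.2% of protein-coding rows lay above control. The member sum was 2423 FPKM with BMH-21 and 2256 FPKM in control, and the median member was at 5.98 FPKM with BMH-21 and 5.70 FPKM in control. The median half-width, the uncertainty that the 2 pairs of bounds give for a single gene, was 0.35. No error can be given for the median itself. The member median stayed above that of all rows under 3 other scalings of the table. Its own size rests on the scaling, and after upper-quartile scaling it was 0.02, where that of all rows was -0.04. The floor was set on the control estimate alone, for the members and for the rows they are set beside.

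Few members stood apart one by one. Intervals were separate for 7 members higher with BMH-21, or 2.60%, against a background of 2.86% of all rows and 2.66% of protein-coding rows. They were separate for 2 members lower, or 0.743%, against 3.21% of all rows and 2.89% of protein-coding rows. The other 260 members overlapped. The number of higher and lower members depends on the scaling. After median scaling 5 members were higher, or 1.86% against 2.41% of all rows, and 3 lower, or 1.12% against 3.56%. After upper-quartile scaling 5 were higher, or 1.86% against 1.99% of all rows, and 7 lower, or 2.60% against 4.45%. The lower share was thus below that of all rows under each of these scalings, a contrast that was not tested. ZNF337, ZNF436, ZNF440, ZNF707 and ZNF787 were higher with separate intervals, and ZNF362 and ZNF367 lower, under all 3 of these scalings. ZNF589 and ZNF335 overlapped under both rescalings. ZNF812 joined the lower members under both, and ZNF32, ZNF397, ZNF643 and ZNF853 under upper-quartile scaling.

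By size alone 6 of 269 members were at least 1.5-fold higher on the log2(FPKM + 1) scale, against 2.82% of all rows and 1.95% of protein-coding rows. At least 1.5-fold lower were 2 of 269 members, against 2.93% of all rows and 2.32% of protein-coding rows. This scale shrinks folds more at low levels, and the median control level was 5.70 FPKM over members and 14.6 FPKM over all rows. With no pseudocount 8 members were 1.5-fold higher and 5 lower, and no share over all rows was computed for that setting. On the log2(FPKM + 1) scale no member was 2-fold higher, against 1.04% of all rows and 0.651% of protein-coding rows, and 1 was 2-fold lower, against 0.702% and 0.286%. The standard deviation of the log2 difference was 0.24 over members and 0.29 over protein-coding rows.

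**Figure D1:**
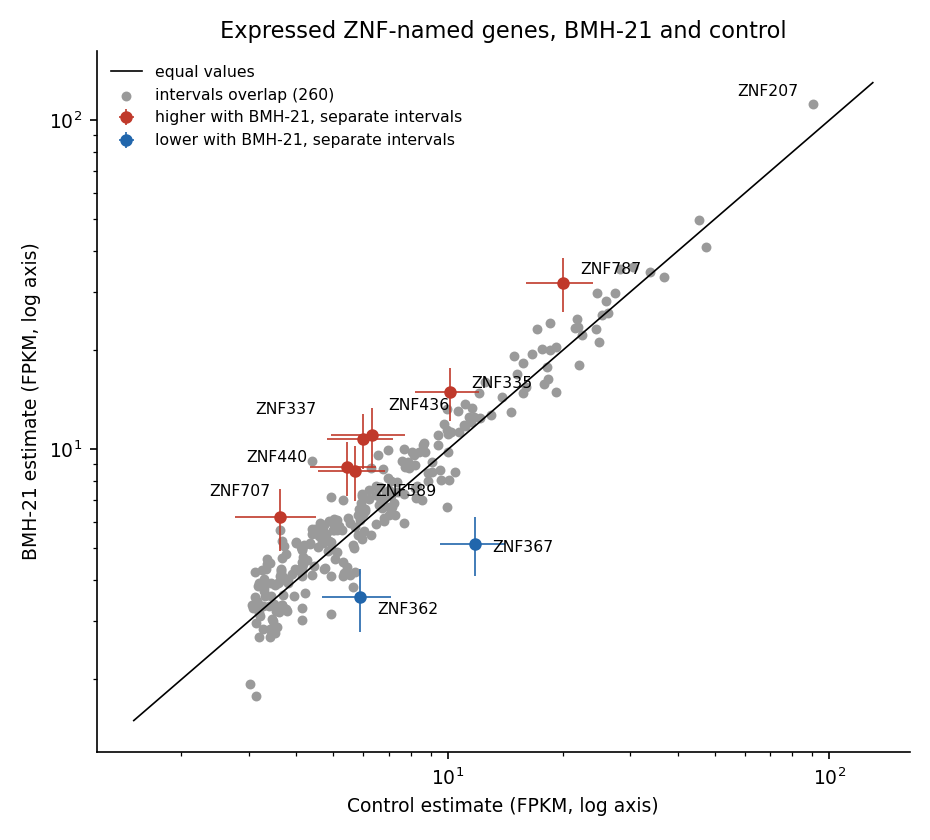
BMH-21 estimate (vertical axis) against control estimate (horizontal axis) of the 269 members in FPKM, both on log axes, with the authors' bounds drawn for members whose intervals are separate. The 7 higher members in red lie between 3.63 and 20.1 FPKM in control, and ZNF367 is the blue point furthest from the line of equal values.

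**Figure D2:**
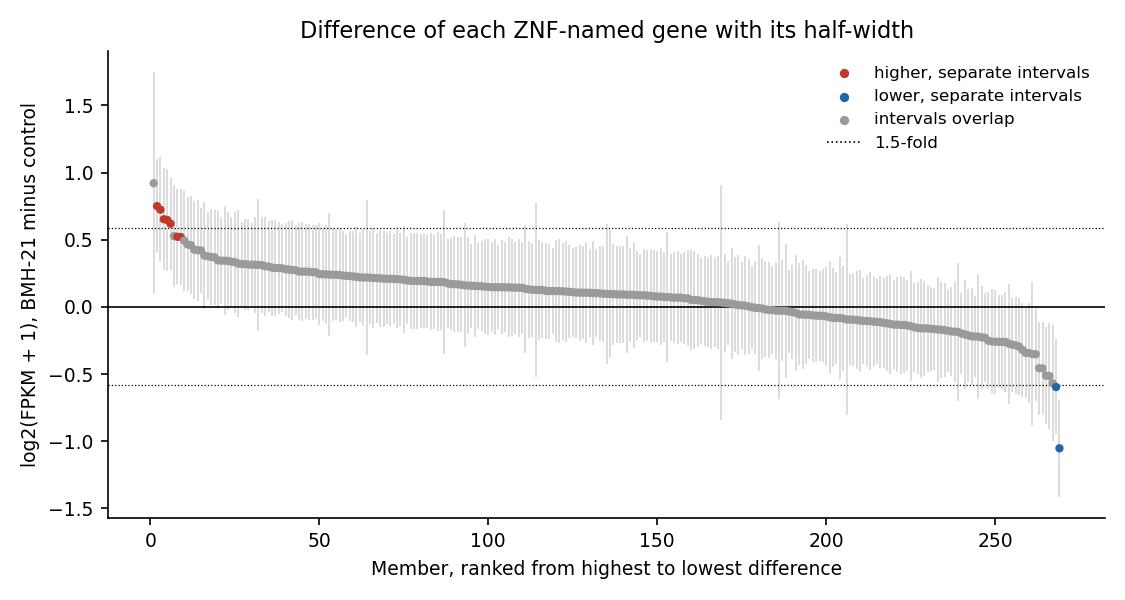
Log2 difference of each member, ranked from highest to lowest, with its half-width as a grey bar. Most bars cross 0, and 177 of 269 points lie above it.

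The higher members with separate intervals held 5 genes with a KRAB-A-like stretch and 2 without, where 152 of the 261 members with a protein sequence have one. A stricter pattern, which found 111, kept 3 of the 5 and missed ZNF337 and ZNF436. ZNF337 was at 10.8 FPKM (bounds 8.73 to 12.8) with BMH-21 and 5.99 FPKM (bounds 4.81 to 7.17) in control, 1.796-fold higher. ZNF436 was at 11.1 FPKM (bounds 8.78 to 13.4) with BMH-21 and 6.32 FPKM (bounds 4.94 to 7.69) in control. ZNF707 was at 6.25 FPKM (bounds 4.92 to 7.58) with BMH-21 and 3.63 FPKM (bounds 2.77 to 4.49) in control. These proteins carry 19, 12 and 7 fingers in the order given. ZNF440, a gene of chromosome 19, was at 8.87 FPKM (bounds 7.22 to 10.5) with BMH-21 and 5.42 FPKM (bounds 4.36 to 6.49) in control. ZNF589 was at 8.62 FPKM (bounds 6.97 to 10.3) with BMH-21 and 5.70 FPKM (bounds 4.55 to 6.84) in control, and its intervals missed each other narrowly.

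The remaining higher members lack a KRAB domain by the criterion used here. ZNF787 was at 32.1 FPKM (bounds 26.2 to 38.1) with BMH-21 and 20.1 FPKM (bounds 16.1 to 24.1) in control, the highest level among the separate members. ZNF335, which acts with histone H3 lysine methyltransferase complexes and is needed for brain growth, was at 14.9 FPKM (bounds 12.2 to 17.7) with BMH-21 and 10.1 FPKM (bounds 8.20 to 12.04) in control. Its intervals too were separate by a narrow margin.

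Some members of large difference overlapped all the same. ZNF654 had the highest log2 difference of all, 0.92 ± 0.83 (half-width), at 9.22 FPKM with BMH-21 and 4.40 FPKM in control, a plain ratio of 2.10. Its bounds were the widest relative to the control estimate, extending 52.2% of it to either side, against a median of 20.1% over members. ZNF767, which RefSeq names as the transcribed pseudogene ZNF767P, was at 5.67 FPKM with BMH-21 and 3.63 FPKM in control. ZNF408, a gene linked to inherited vitreoretinopathy, was at 9.63 FPKM with BMH-21 and 6.55 FPKM in control. Its log2 difference of 0.49 ± 0.38 exceeded the half-width, so overlap of intervals does not mean equal levels.

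Below control the separate members were ZNF367 and ZNF362, and neither carries a KRAB domain. ZNF367, with 2 fingers, was at 5.17 FPKM (bounds 4.11 to 6.23) with BMH-21 and 11.8 FPKM (bounds 9.53 to 14.1) in control. It was 2.28-fold lower, with a log2 difference of -1.05 ± 0.36. ZNF362 was at 3.55 FPKM (bounds 2.79 to 4.32) with BMH-21 and 5.89 FPKM (bounds 4.67 to 7.11) in control, 1.66-fold lower. No other member came as far down as ZNF367, whose distance to ZNF362 on the log2 scale was larger than that from ZNF362 to the tenth from the bottom.

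The rest of the lower end had overlapping intervals as deposited. ZNF397 was at 1.79 FPKM with BMH-21 and 3.13 FPKM in control, a log2 difference of -0.57 ± 0.43. ZNF32 was at 6.68 FPKM with BMH-21 and 9.96 FPKM in control, and the pseudogene ZNF812 (ZNF812P) at 3.17 FPKM with BMH-21 and 4.95 FPKM in control. ZNF853 was at 3.83 FPKM with BMH-21 and 5.63 FPKM in control, and ZNF643, now named ZFP69B, at 1.94 FPKM with BMH-21 and 3.03 FPKM in control. For each of these genes the difference exceeded its half-width. In all it did so for 22 higher and 9 lower members, or 8.18% and 3.35%. The background of such differences was 6.36% higher and 6.71% lower over all rows, and 6.23% higher and 6.48% lower over protein-coding rows. ZNF512 was at 4.24 FPKM with BMH-21 and 5.69 FPKM in control, just past its half-width. ZNF726 and ZNF496 closed the group within theirs, with log2 differences of -0.35 ± 0.53 and -0.34 ± 0.37.

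**Figure D3:**
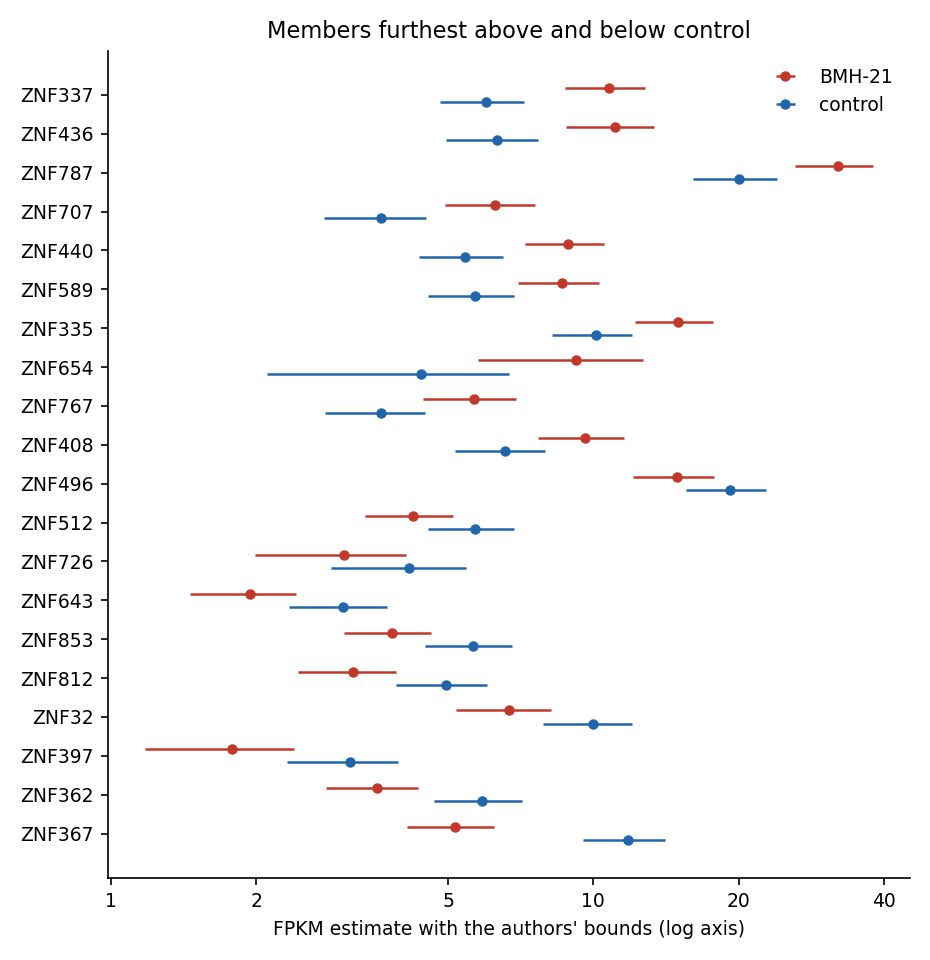
FPKM estimates with the authors' bounds (log axis) of the 10 members furthest above and the 10 furthest below control, BMH-21 in red above control in blue for each gene. The bars do not overlap for ZNF337, ZNF436, ZNF787, ZNF707, ZNF440, ZNF589 and ZNF335, nor for ZNF362 and ZNF367.

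Levels of the members were low, between 3.03 and 90.4 FPKM in control, with quartiles of 4.12 and 8.88 FPKM. The most abundant was ZNF207, which encodes BuGZ, a protein of kinetochore attachment and spindle assembly, at 112 FPKM (bounds 91.6 to 132) with BMH-21 and 90.4 FPKM (bounds 74.0 to 107) in control. ZNF593, a nucleolar protein whose yeast counterpart serves export of the large ribosomal subunit, followed at 41.1 FPKM with BMH-21 and 47.5 FPKM in control. ZNF259, now named ZPR1, was at 49.7 FPKM with BMH-21 and 45.5 FPKM in control. ZNF146, made of fingers with little else, was at 33.5 FPKM with BMH-21 and 36.9 FPKM in control. ZNF511 was at 34.7 FPKM with BMH-21 and 33.9 FPKM in control, with bounds that extend 42.4% of the control estimate. All of these intervals overlapped.

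As deposited, the offset above control was seen at each level of expression. The levels were not examined under other scalings. Among members between 3 and 5 FPKM in control the median log2 difference was 0.11, and 69.0% of 113 were above control. Among 1074 protein-coding rows of that level the median was -0.02 and 46.9% were above control. Between 5 and 10 FPKM the medians were 0.09 over 99 members and 0.02 over 1983 protein-coding rows. Between 10 and 20 FPKM they were 0.09 over 37 members and 0.04 over 2261 rows, and at 20 FPKM or more 0.10 over 20 members and 0.06 over 3434 rows. Above control were 61.6% of members and 53.5% of rows between 5 and 10 FPKM, and 67.6% and 54.7% between 10 and 20 FPKM. At 20 FPKM or more the shares were closest, 65.0% and 61.8%. The member medians barely changed with level while those of protein-coding rows were higher at higher level.

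**Figure D4:**
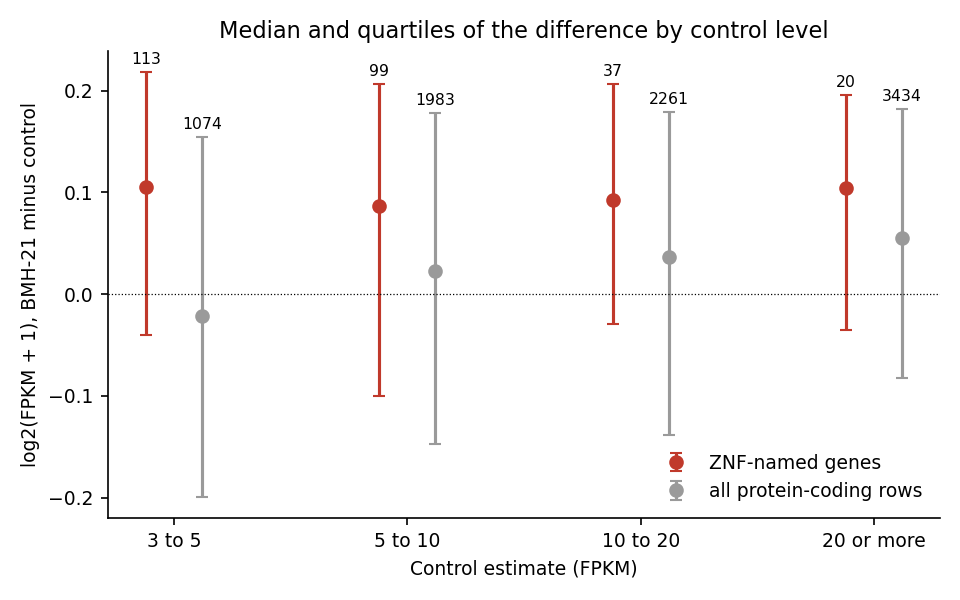
Median (point) and quartiles (bars) of the log2 difference by control level in FPKM, members in red beside all protein-coding rows in grey, with the number of genes above each bar. The member median stays between 0.09 and 0.11, while that of protein-coding rows runs from -0.02 at the lowest to 0.06 at the highest level.

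Members that act on the ribosome or sit in the nucleolus had 6 of 6 overlapping intervals and a median log2 difference of 0.18. ZNF274, a KRAB protein that binds the 3′ ends of ZNF genes and brings SETDB1 to them, was at 8.80 FPKM with BMH-21 and 6.30 FPKM in control, and its log2 difference of 0.43 ± 0.36 exceeded the half-width. ZNF622, whose yeast counterpart matures the large ribosomal subunit, was at 29.9 FPKM with BMH-21 and 24.5 FPKM in control. ZNF593 was the member of this list below control, with a log2 difference of -0.20 ± 0.41.

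Members with a reported tie to p53 or its partners numbered 4 of 6 listed, and all overlapped, with a median of 0.08. ZNF668 was at 16.0 FPKM with BMH-21 and 12.5 FPKM in control. ZNF346, a protein that binds double-stranded RNA, was at 7.53 FPKM with BMH-21 and 7.004 FPKM in control. ZNF385A, whose mouse counterpart Hzf is induced by p53 and acts with it, was at 3.22 FPKM with BMH-21 and 3.55 FPKM in control.

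Members of RNA processing and the spindle numbered 5 of 6 listed, and all had estimates above control, with a median of 0.30 and overlapping intervals. ZNF326, a subunit of the DBIRD complex that couples transcription to splicing, was at 13.2 FPKM with BMH-21 and 9.93 FPKM in control. ZNF706, which encodes a protein of 76 residues, was at 19.2 FPKM with BMH-21 and 14.9 FPKM in control. Of 22 members that serve chromatin and transcription, ZNF335 was the 1 with separate intervals, and the median was 0.07. ZNF518B was at 13.1 FPKM with BMH-21 and 10.6 FPKM in control. On the low side ZNF76, a paralog of the promoter factor ZNF143, was at 4.13 FPKM with BMH-21 and 5.30 FPKM in control, and ZNF318 at 3.23 FPKM with BMH-21 and 3.79 FPKM in control.

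Members that bind repeats or guard imprints numbered 10, all overlapping, with a median of 0.07. ZNF91, a protein of 31 fingers that represses SVA retrotransposons, was at 11.2 FPKM (bounds 9.15 to 13.2) with BMH-21 and 10.0 FPKM (bounds 8.16 to 11.9) in control. ZNF93, which represses a family of L1 elements, was at 2.69 FPKM with BMH-21 and 3.19 FPKM in control. ZNF202 was at 5.18 FPKM with BMH-21 and 4.34 FPKM in control, and ZNF354A at 5.35 FPKM with BMH-21 and 5.96 FPKM in control.

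The partners through which KRAB proteins work were likewise near control. All 19 listed cofactors were at 3 FPKM or more, none had separate intervals and their median log2 difference was 0.03. TRIM28 was at 239 FPKM (bounds 197 to 282) with BMH-21 and 213 FPKM (bounds 175 to 251) in control. SETDB1 was at 16.7 FPKM (bounds 13.0 to 20.3) with BMH-21 and 18.9 FPKM (bounds 14.8 to 23.1) in control. Other zinc finger families of the same floor gave 1 higher, 1 lower and 10 overlapping genes of 12 with ZFP symbols, and 1 higher and 28 overlapping genes of 29 with ZBTB symbols. Their medians were 0.002 and -0.04. The 3 ZSCAN and 3 ZKSCAN genes all overlapped, with medians of 0.26 and 0.16, both above that of the members. Families were split by the deposited symbols, and some members now carry names of these other families. Examples are ZNF295 (ZBTB21), ZNF238 (ZBTB18), ZNF498 (ZSCAN25), ZNF434 (ZSCAN32) and ZNF192 (ZKSCAN8).

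Protein features were read from GENCODE release 29 coding sequences, which matched 261 members. Members held 0 to 33 C2H2 fingers with a median of 10, and 152 carried a stretch like the A box of the KRAB domain. KRAB members were less abundant, with a median of 5.52 FPKM with BMH-21 and 4.90 FPKM in control, than the 109 others, with 7.94 FPKM with BMH-21 and 7.69 FPKM in control. Their median log2 difference was 0.12, with 5 higher, 0 lower and 147 overlapping. That of the others was 0.08, with 2 higher, 2 lower and 105 overlapping. Over all rows, 2.86% were higher and 3.21% lower with separate intervals. These counts are as deposited. After upper-quartile scaling the KRAB member ZNF643 was also lower, as were ZNF32, ZNF397 and ZNF853, which lack such a stretch. The gap between these medians was 0.04 and shrank to 0.01 with a stricter pattern. By number of fingers the medians were 0.08 for 0 to 4, 0.09 for 5 to 9, 0.10 for 10 to 14 and 0.11 for 15 or more. Across 261 genes of the same libraries, Pearson's r between fingers and log2 difference was 0.06 and Spearman's rho 0.04.

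Chromosome 19 held 108 members, by RefSeq on GRCh38.p14, and their median log2 difference was 0.11, with 2 higher, 0 lower and 106 overlapping. The 161 members elsewhere had a median of 0.09, with 5 higher, 2 lower and 154 overlapping. This split too is as deposited, and ZNF812 of chromosome 19 was lower under both rescalings. Among the other chromosomes with at least 8 members, chromosome 1 had the lowest median, -0.03, with 9 of 19 members above control. Chromosome 7 had 17 of 21 above control (median 0.15), chromosome 3 had 8 of 9 (median 0.15) and chromosome 16 had 15 of 20 (median 0.14). Members next to each other along a chromosome, at any distance, showed little likeness in their differences. In 67 pairs of adjacent protein-coding members, 42 of them on chromosome 19, Pearson's r between the log2 differences of the pair was -0.03 and Spearman's rho 0.02, and 39 pairs had the same sign. Adjacent pairs are often close paralogs and can share reads, which FPKM values cannot separate.

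**Figure D5:**
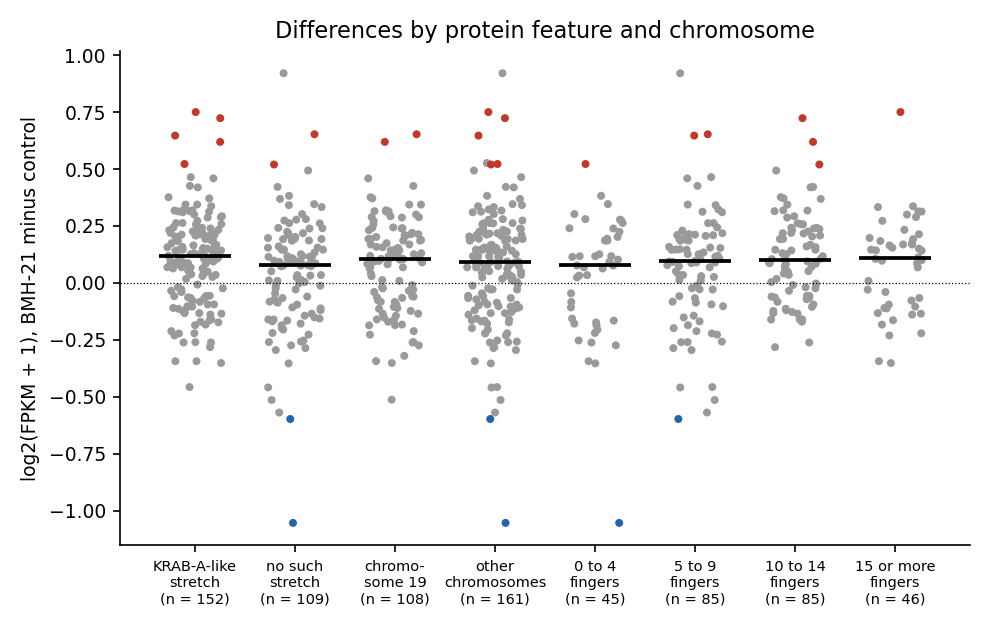
Log2 difference of each member (points) and the median of each group (black line), by KRAB-A-like stretch, chromosome and number of fingers, with separate intervals in red (higher) and blue (lower). The medians run from 0.08 to 0.12. As deposited, both lower members with separate intervals lie outside the KRAB group and off chromosome 19, which did not hold after upper-quartile scaling.

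An ETS-type motif was more frequent in promoters of the members than in promoters at large. The promoters set beside them had no expression floor, while the members were chosen as expressed. Expression and the ZNF name cannot be told apart in this contrast. The ETS-type motif CCGGAAG, on either strand, stood in 43.6% of 234 member promoters, against 14.2% of 15843 protein-coding promoters and 10.7% of all 27305 promoters of the same length. It was in 50.4% of KRAB members and 33.7% of the others. The median log2 difference was 0.09 in members that hold the motif and 0.10 in those that do not, and 3 of the higher and 1 of the lower separate members hold it. ZNF787, printed above, holds 3 matches.

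Other motifs were rarer, and the protein-coding promoters set beside them again had no expression floor. E2F-type letters (TTTCCCGC, TTTGGCGC, TTTCGCGC or TTTGCCGC, either strand) were in 6.41% of member promoters and 4.44% of protein-coding promoters. Of the 8 separate members with a promoter in the table, ZNF367 alone holds them, with 2 matches. The 15 members that hold them had a median log2 difference of 0.11, against 0.10 in those that do not. GTAGTCC, a run noticed as a repeat in the ZNF337 promoter, was in 7.26% of member promoters and 2.75% of protein-coding promoters, and also in ZNF335. TATAAA was in 4.27% of member promoters and 9.63% of protein-coding promoters, and 3 of the higher separate members hold it. The p53 half-site consensus was in 5.56% of member promoters and 5.93% of protein-coding promoters, with no match among the separate members. The median log2 difference was 0.16 in the 17 members that hold GTAGTCC, against 0.10 in those that do not. For TATAAA it was 0.20 in 10 members against 0.09, and for the p53 half-site 0.19 in 13 members against 0.09. These contrasts rest on few genes and were not tested. Such matches describe letters and are not evidence of binding. Promoter GC had a median of 62.3% over members and 62.7% over protein-coding genes. Across 234 members Pearson's r between promoter GC and log2 difference was -0.22 and Spearman's rho -0.17, the members sharing libraries and the composition of their clusters.

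The floor of 3 FPKM fell within a dense part of the range. The members just inside it were ZNF643, ZNF653 (3.37 FPKM with BMH-21 and 3.06 FPKM in control) and ZNF138 (3.29 FPKM with BMH-21 and 3.09 FPKM in control). Just outside were ZNF493 (4.05 FPKM with BMH-21 and 2.98 FPKM in control), ZNF681 (2.85 FPKM with BMH-21 and 2.98 FPKM in control) and ZNF503 (4.09 FPKM with BMH-21 and 2.97 FPKM in control). The 266 ZNF-named rows under the floor had a median log2 difference of 0.03, and 56.4% lay above control. Of them 4 were higher and 2 were lower with separate intervals. No share over all rows under the floor was computed, so these values stand without a background. ZNF79, named after its values were seen, was the clearest, at 6.84 FPKM (bounds 5.44 to 8.25) with BMH-21 and 2.76 FPKM (bounds 2.11 to 3.41) in control, 2.48-fold higher. The others were ZNF594, ZNF844 and ZNF441 on the high side, 1.55-fold to 1.77-fold above control, and ZNF467 and ZNF704 on the low side, both below 1 FPKM.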

How the data were processed

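The authors deposited 1 table of FPKM values per gene, with 25548 rows and 3 columns a group. TopHat2, Cuffdiff 2.0 and GRCh37 appear in the submitters' processing notes, without roles or settings, and per the labels' protocols libraries came from a stranded total RNA kit. Among rows with all values above 0, the first value equalled the mean of the other 2 (relative tolerance 0.0001) in 15872 of 15881 BMH-21 rows and 16203 of 16213 control rows. The deposited columns were read as FPKM estimates with bounds, so the written plan's limma fit for single libraries could not be used and values are given without a test. Differences are on the log2(FPKM + 1) scale, which understates changes of low genes, and folds are ratios of estimates. A gene's half-width joins those of both groups, squared, added and rooted, on that scale.

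The counting code was run on simulated data whose planted shifts were too large for their bounds to overlap. That run checks the code and not how the rule performs on the real bounds. Members, lists and motifs were chosen with earlier results of these data known. The genes named are the 10 furthest each way, those with separate intervals, up to 2 per role list and direction, the 5 most abundant and those next to the floor. RefSeq matched 269 members, 16 by an older symbol, and calls 6 of them pseudogenes. Another 5 (ZNF559, ZNF625, ZNF664, ZNF670, ZNF695) share exons with a row of joined symbols, so their values are uncertain. C2H2 fingers were counted by pattern in the longest coding sequence of GENCODE 29, and KRAB-A-like stretches with a profile built in pyhmmer from strict matches (E-value under 0.001). Coordinates are those of RefSeq on GRCh38.p14, not of the authors' build. Alternatives covered pseudocounts, scalings, the floor and the definition of members. Python 3.11.15 and pandas 2.3.3 were used.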

Additional observations from a re-analysis of the deposited data

How the results depend on the processing

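The member median of 0.10 stayed above 0 and above that of all rows in every alternative tried. It was 0.0627 after median scaling and 0.0237 after upper-quartile scaling, where all rows were at 0 and -0.04. Its highest value was 0.12, with members chosen by a BMH-21 estimate of at least 3 FPKM (285 genes). That choice favours genes that are high with BMH-21, and the median of all rows was then 0.05. Counts were small and moved easily, at other floors together with the number of members. Members at least 1.5-fold lower numbered 5 instead of 2 with a pseudocount of 0.1 or with none, 4 after upper-quartile scaling and 1 at a control floor of 10 FPKM. Those at least 1.5-fold higher numbered 3 instead of 6 after upper-quartile scaling and 1 at that floor. Separate intervals were seen for 1 lower and 2 higher of 57 members at the floor of 10 FPKM. At a floor of 1 FPKM they were seen for 11 higher of 426 members. The main set has 269 members, and no share over all rows is given at these other floors. After upper-quartile scaling, tried for these intervals after seeing the data, 7 were lower and 5 higher instead of 2 lower and 7 higher. Counting differences past the half-width gave 9 lower and 22 higher. The gap between KRAB and other medians was 0.0146 with the stricter pattern, which found 111 KRAB members in place of 152, and the cause was not tested. The remaining alternatives kept each count within 1.5 times, including a set without the 11 pseudogenes and members of joined rows, chosen after seeing the data. No paired analysis was possible because the columns hold estimates and bounds of a group, and for the same reason no replicate could be left out. Depth is unknown, so no floor of detection can be given.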
